A study of Mus musculus with 6 samples.

Results

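CD209 and other C-type lectin genes were followed in splenic B cells of AhR-sufficient and AhR-deficient mice. The 9 genes were Cd209a, Cd209b, Cd209d, Clec10a, Clec9a, Clec2d, Clec12a, Clec4a2 and Clec7a, of 23420 genes in the count table. They were chosen by name with their counts in this same comparison known, so their own differences between genotypes are given as a description, with no p. The aryl hydrocarbon receptor (AhR) is a transcription factor that is switched on by small ligands, and the study compared RNA of B cells with and without it. B cells from spleens of 3 Ahr+/+ and 3 Ahr-/- mice, both labelled with the C57Bl/6J background, were cultured for 8 h in IMDM with serum, anti-IgM (10 µg/ml), which engages the B cell receptor, and the cytokine IL-4 (20 ng/ml). The AhR ligand FICZ (250 nM) was present for the last 4 h in every culture of both genotypes, so no library stands for unstimulated or ligand-free cells. The Ahr-/- mice carry a germline null allele, so every cell type of the spleen lacked AhR, and B cells were enriched with an isolation kit that leaves a minority of other cells.

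C-type lectins share a fold that in many members binds sugars in a calcium-dependent way, and most of those studied here are single-pass receptors of myeloid and dendritic cells. CD209 proteins (DC-SIGN and its mouse relatives) and the galactose-type lectin Clec10a bind glycans and take up what they bind. Dectin-1 (Clec7a) and DNGR-1 (Clec9a) carry a tyrosine motif that recruits the kinase Syk, whereas Clec12a and DCIR (Clec4a2) carry an inhibitory motif that recruits phosphatases. Clec2d differs from the others, since it is itself a ligand, bound by the inhibitory receptor encoded by Klrb1b, and is made by many cells, lymphocytes included.

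Libraries held 22095096 to 53648787 counts. Values below are counts scaled to a common library size (normalized counts), in which the detection floor of 3 counts is 2.13 to 5.15, and fold changes are Ahr-/- over Ahr+/+. Ahr itself had 12680, 12890 and 13950 normalized counts in Ahr+/+ and 8856, 8949 and 9717 in Ahr-/- libraries, a log2 fold change of -0.52 ± 0.05 (edgeR, adjusted p = 7.1e-06). Reads from parts of the null allele that are still transcribed would be included here. The AhR target Cyp1a1 separated the genotypes in all 6 libraries, with 4973 to 5437 normalized counts in Ahr+/+ and 2.84 to 6.87 in Ahr-/-. In bulk RNA, fewer cells of a type and less RNA per cell cannot be told apart, and this holds for every lectin below.

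Of the 9 genes, 8 had at least 10 counts in all and entered the fit. Each of the 8 had a higher mean in Ahr-/- than in Ahr+/+ libraries, and for Cd209a, Cd209d, Clec10a, Clec9a and Clec12a the lowest Ahr-/- library exceeded the highest Ahr+/+ library. These 5 genes also passed an adjusted p of 0.05 in the edgeR fit over all genes, in which 17.9% of all 13682 tested genes passed in either direction and 9.79% passed as higher in Ahr-/-. Non-overlapping libraries with Ahr-/- above were seen in 17.7% of all tested genes. Nothing is read from these counts, which are no test of the 9 genes, because the same values chose them.

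**Figure D1:**
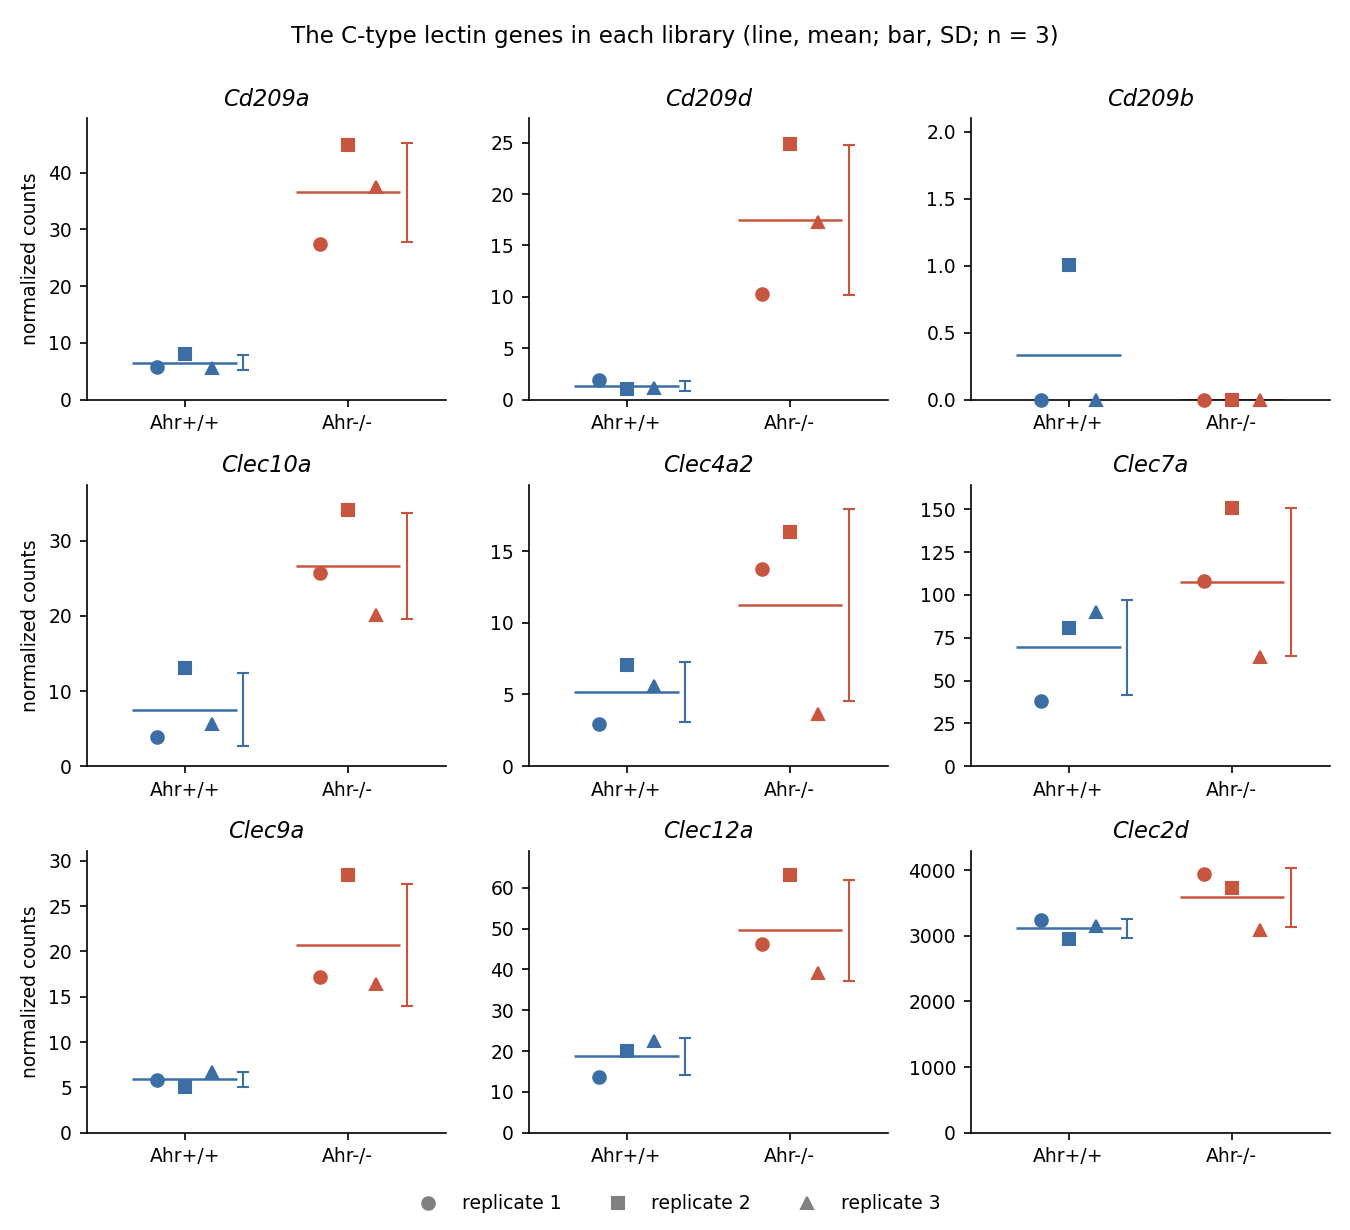
Normalized counts (vertical axes, from 0, a scale of its own in each panel) of the 9 C-type lectin genes in Ahr+/+ (blue) and Ahr-/- (red) libraries; symbols mark the replicate number, lines the mean and bars the SD (n = 3, no bar for Cd209b). Cd209a, Cd209d, Clec10a, Clec9a and Clec12a are separated by genotype, Clec4a2, Clec7a and Clec2d overlap, and Cd209b has 1 count in a single library.

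The CD209 genes lie side by side on chromosome 8, and reads could be confused between such close relatives. Aligned coding sequences of Cd209a, Cd209b, Cd209c, Cd209d and Cd209e were 69.3 to 78.6% identical over the 10 pairs, and the longest identical run in any pair was 26 bases. No 50-base window of the Cd209a, Cd209b or Cd209d transcripts was found in a transcript of another gene. The stretches below show this for 60 aligned coding bases of Cd209a (GRCm38, chr8:3746893-3746952), Cd209d (chr8:3876266-3876325), Cd209e (chr8:3852754-3852813) and Cd209b (chr8:3921352-3921411), all on the minus strand, each within 1 exon. Capitals mark bases that differ from Cd209a, 17 in Cd209d, 17 in Cd209e and 16 in Cd209b.
Cd209a: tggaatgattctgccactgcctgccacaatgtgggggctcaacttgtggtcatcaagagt
Cd209d: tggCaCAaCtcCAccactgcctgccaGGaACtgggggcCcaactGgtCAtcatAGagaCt
Cd209e: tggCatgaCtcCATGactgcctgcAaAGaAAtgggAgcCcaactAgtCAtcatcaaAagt
Cd209b: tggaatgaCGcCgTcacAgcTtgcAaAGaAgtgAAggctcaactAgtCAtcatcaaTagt

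The upstream sequences are shown because Cd209a, Cd209d and Cd209e differed between genotypes in the same direction while Cd209b had 1 count in all. They were taken from RefSeq (GRCm38.p6), which had an entry for 8 of the 9 genes, with windows of 250 bases before and 50 bases after each annotated start. They are printed from the 5′ end of the window to 10 bases past the first start that RefSeq or GENCODE annotates, on the gene's own strand, at chr8:3748975-3749234 (minus), chr8:3878546-3878749 (minus), chr8:3854300-3854536 (minus), chr8:3926835-3927091 (minus), chr6:129472770-129473029 (minus) and chr6:129180365-129180624 (plus). Capitals mark a match, on either strand, to the AhR core GCGTG, to GAAA and GAAA 2 bases apart (an interferon-stimulated response element) or to GGAA and GAAA 2 bases apart (a composite element of ETS and IRF factors). The interferon-stimulated and composite elements were chosen after the values were seen, share most of their letters and had no overlapping match in these windows.
Cd209a: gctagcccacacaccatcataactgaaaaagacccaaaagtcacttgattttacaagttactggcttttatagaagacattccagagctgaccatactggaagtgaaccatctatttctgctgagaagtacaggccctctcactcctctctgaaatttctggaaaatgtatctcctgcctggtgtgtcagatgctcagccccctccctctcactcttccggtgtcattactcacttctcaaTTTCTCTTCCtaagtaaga
Cd209d: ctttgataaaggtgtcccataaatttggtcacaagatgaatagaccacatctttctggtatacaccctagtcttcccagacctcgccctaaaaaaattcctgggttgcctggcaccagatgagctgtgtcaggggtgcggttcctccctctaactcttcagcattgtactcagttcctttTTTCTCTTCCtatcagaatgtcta
Cd209e: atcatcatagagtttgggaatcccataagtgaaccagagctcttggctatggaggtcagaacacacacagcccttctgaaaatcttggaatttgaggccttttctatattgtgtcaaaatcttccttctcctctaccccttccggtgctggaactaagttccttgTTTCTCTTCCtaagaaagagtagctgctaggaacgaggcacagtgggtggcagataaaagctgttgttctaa
Cd209b: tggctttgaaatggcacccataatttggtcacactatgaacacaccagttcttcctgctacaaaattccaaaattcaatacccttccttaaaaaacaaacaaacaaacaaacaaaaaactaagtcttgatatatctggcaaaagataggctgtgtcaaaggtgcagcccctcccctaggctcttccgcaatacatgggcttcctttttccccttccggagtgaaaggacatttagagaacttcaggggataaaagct
Clec7a: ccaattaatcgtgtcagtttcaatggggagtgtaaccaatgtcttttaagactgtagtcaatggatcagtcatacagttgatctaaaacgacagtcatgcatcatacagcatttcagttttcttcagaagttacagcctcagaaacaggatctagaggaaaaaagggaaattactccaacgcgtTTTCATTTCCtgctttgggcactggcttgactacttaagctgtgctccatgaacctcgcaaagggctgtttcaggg
Clec2d: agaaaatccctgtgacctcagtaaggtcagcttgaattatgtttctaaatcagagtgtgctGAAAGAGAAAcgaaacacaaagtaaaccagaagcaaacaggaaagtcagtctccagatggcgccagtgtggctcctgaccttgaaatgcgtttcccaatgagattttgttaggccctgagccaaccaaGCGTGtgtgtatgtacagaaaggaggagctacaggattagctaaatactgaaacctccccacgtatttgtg

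Over all 32851 promoter windows, GCGTG was in 32.4%, the interferon-stimulated element in 3.44% and the composite element in 2.72%. Of the 8 genes with a window, Clec2d alone held GCGTG, beginning 61 bases before the start, and it also held the interferon-stimulated element, beginning 189 bases before it. The composite element was matched in Cd209a, Cd209d and Clec7a, and in the paralog Cd209e, beginning 9, 14, 66 and 62 bases before the first start that RefSeq or GENCODE annotates. Before the RefSeq start alone these distances are 70 bases in Cd209d and 85 in Cd209e. The match was the same 10 bases, TTTCTCTTCC as printed, in Cd209a, Cd209d and Cd209e, and these are in 0.432% of all windows. That share is no measure for paralogs, since the aligned windows of Cd209a were 75.8% identical to those of Cd209d and 72.1% to those of Cd209e. By the same alignment Cd209d and Cd209e were 64.7% identical, and pairs of a CD209 gene with Clec9a, Clec12a or Clec2d 56.1 to 64.7%. The windows of Cd209b, Clec9a, Clec12a and Clec4a2 held none of these motifs. The window of Cd209c, a paralog that was detected and overlapped between genotypes, was not looked at on its own. Whether the motifs go with the differences within the cluster was not tested. A match of letters is a description of these windows and does not show that a factor binds there.

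Cd209a, a mouse relative of human DC-SIGN that dendritic cells express (GENCODE, GRCm38, as for all genes below, chr8:3743397-3748984, minus strand), had 5.83, 8.05 and 5.62 normalized counts in Ahr+/+ and 27.5, 44.8 and 37.4 in Ahr-/- libraries. The lowest Ahr-/- library stood well above the highest Ahr+/+ library. Means were 6.50 ± 1.35 and 36.5 ± 8.69 (SD, n = 3), a ratio of 5.62 and a log2 fold change of 2.52 ± 0.32 (SE). It ranged from 2.23 to 2.70 over 15 other settings and left-out libraries. The Ahr+/+ mean rests on 19 counts in all, against 120 in Ahr-/-, and the exact 95% interval of the ratio of summed counts was 3.66 to 10.2, which covers counting error only.

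Cd209d (SIGNR3, chr8:3871824-3878555, minus strand) was at the detection floor in Ahr+/+, with 2, 1 and 1 raw counts, and had 6, 35 and 19 raw counts in Ahr-/- libraries. In normalized counts these were 1.94, 1.01 and 1.12 against 10.3, 24.9 and 17.3, with no overlap. The ratio of summed counts, 60 against 4, was 14.2 with an exact 95% interval of 5.25 to 53.7. Its fitted log2 fold change of 3.66 ± 0.55 depended on the prior count and was 2.62 with a prior count of 2. Cd209d entered the fit through its Ahr-/- counts alone.

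Cd209b (SIGN-R1, the receptor of marginal zone macrophages, chr8:3917655-3926844, minus strand) had a single count, in Ahr+/+ replicate 2, and none elsewhere. It was not detectable at this depth in Ahr-/- libraries, where 0 counts allow up to 2.13 to 5.15 normalized counts. Of the paralogs outside the 9 genes, Cd209f and Cd209g had no count in any library, and Cd209h had no row. Cd209e (SIGNR4), 105.3 kb from Cd209a, had 2.91, 3.02 and 2.25 normalized counts in Ahr+/+ and 6.87, 20.6 and 11.8 in Ahr-/- libraries. It rose with a log2 fold change of 2.34 ± 0.52 (edgeR, adjusted p = 0.0074), a call that was lost without Ahr-/- replicate 2 (adjusted p = 0.062). Its Ahr+/+ libraries were at the detection floor, with 3, 3 and 2 raw counts, and like Cd209d it entered the fit through its Ahr-/- counts (46 in all). The ratio of summed counts was 5.43 with an exact 95% interval of 2.54 to 13.3, and the fitted log2 fold change was 1.79 with a prior count of 2. It was not tested under a filter of 10 counts in 3 libraries. Cd209c (SIGNR2), next to Cd209b, did not follow Cd209a, with 23.3, 18.1 and 21.3 against 20.6, 14.2 and 22.8 normalized counts, a log2 fold change of -0.16 ± 0.29 and an adjusted p of 0.77 in edgeR. Cd209a, Cd209d and Cd209e were lowest in replicate 1 and highest in replicate 2 of the Ahr-/- libraries, which have the smallest and largest totals, and scaling for depth is part of every value given.

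**Figure D2:**
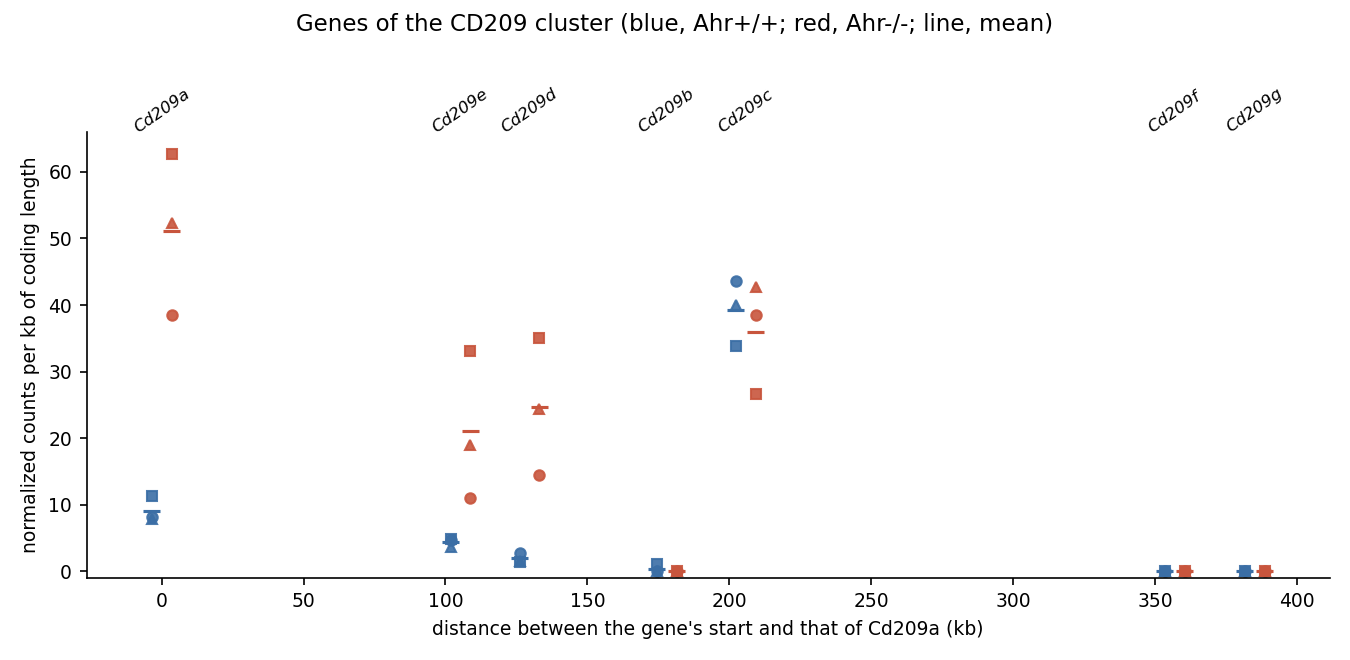
Normalized counts per kb of coding length (vertical axis) of 7 genes of the CD209 cluster against the distance of their start from that of Cd209a in kb (horizontal axis); points are libraries (circle, square and triangle for replicates 1, 2 and 3), blue for Ahr+/+ and red for Ahr-/-, and lines are means. Cd209a, Cd209e and Cd209d are higher in Ahr-/-, Cd209c overlaps, and Cd209b, Cd209f and Cd209g lie at or near 0.

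Clec10a (MGL1, a lectin for galactose and N-acetylgalactosamine, chr11:70156197-70170834, plus strand) had 3.89, 13.1 and 5.62 normalized counts in Ahr+/+ and 25.7, 34.1 and 20.1 in Ahr-/- libraries. All Ahr-/- libraries were above all Ahr+/+ libraries, although Ahr+/+ replicate 2 had more than the sum of its other replicates. Means were 7.53 ± 4.89 and 26.6 ± 7.07 (SD, n = 3), and the log2 fold change was 1.83 ± 0.41 (SE), or 2.50 without Ahr+/+ replicate 2. Its close relative Mgl2 shares 270 of the 3181 50-base windows of the Clec10a transcripts, so reads there could be assigned to neither or to the wrong gene. Mgl2 overlapped between genotypes, with 11.7 to 33.2 normalized counts in Ahr+/+ and 17.3 to 54.9 in Ahr-/- and a log2 fold change of 0.79 ± 0.43 (edgeR, adjusted p = 0.25).

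The remaining genes are on chromosome 6, where Clec12a, Clec9a and Clec7a lie within 292.2 kb of Clec2d and Clec4a2 lies farther away. Clec9a (DNGR-1), which senses actin filaments exposed by dead cells (chr6:129408862-129424763, plus strand), had 5.83, 5.03 and 6.74 normalized counts in Ahr+/+ and 17.2, 28.4 and 16.4 in Ahr-/- libraries. The genotypes did not overlap, and the Ahr+/+ libraries differed by less than counting noise would give. Means were 5.87 ± 0.85 and 20.7 ± 6.73 (SD, n = 3), a log2 fold change of 1.86 ± 0.38 (SE). Clec9a overlaps its neighbour Clec1b on the same strand and shares 136 of 3385 windows with it, and Clec1b had 0.97, 6.04 and 1.12 against 3.43, 1.42 and 0.91 normalized counts.

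Clec7a (Dectin-1, the receptor for fungal β-glucan, chr6:129461591-129472779, minus strand) had 37.9, 80.5 and 89.8 normalized counts in Ahr+/+ and 108.1, 150.7 and 63.8 in Ahr-/- libraries. Ahr-/- replicate 3 fell below 2 of the 3 Ahr+/+ libraries, so the genotypes overlapped. The log2 fold change of 0.66 ± 0.32 (SE) became 0.26 without Ahr-/- replicate 2 and 0.96 without Ahr-/- replicate 3. GENCODE annotates Clec7a as a polymorphic pseudogene, a gene intact in some mouse strains and not in others.

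Among the inhibitory receptors, Clec12a (MICL, which binds uric acid crystals, chr6:129342691-129365303, plus strand) had 13.6, 20.1 and 22.5 normalized counts in Ahr+/+ and 46.3, 63.3 and 39.2 in Ahr-/- libraries. No Ahr-/- library came near the Ahr+/+ range. Means were 18.7 ± 4.59 and 49.6 ± 12.4 (SD, n = 3), a ratio of 2.65 and a log2 fold change of 1.43 ± 0.27 (SE). Clec4a2 (DCIR, chr6:123106428-123143999, plus strand), 6074 kb from Clec2d in a cluster of its own, had 2.91, 7.04 and 5.62 against 13.7, 16.3 and 3.65 normalized counts. Ahr-/- replicate 3, with 4 raw counts, lay inside the Ahr+/+ range and the other Ahr-/- libraries lay above it. Without that library the log2 fold change of 1.11 ± 0.57 (SE) was 1.56, and without Ahr-/- replicate 2 it was 0.51. Clec4a2 also shares 114 of its 2959 windows with Clec4a4, which had 4, 3 and 2 raw counts in Ahr+/+ and none in Ahr-/- libraries, below the minimum for a test.

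Clec2d (Clr-b, chr6:129180615-129186534, plus strand) was the exception in level and in size of difference. It had 3248, 2957 and 3145 normalized counts in Ahr+/+ and 3951, 3728 and 3090 in Ahr-/- libraries. Ahr-/- replicate 3 lay within the Ahr+/+ range and the other Ahr-/- libraries above it. Means were 3117 ± 148 and 3590 ± 447 (SD, n = 3), a ratio of 1.15, and the log2 fold change was 0.20 ± 0.07 (SE), 0.30 without Ahr-/- replicate 3 and 0.13 without Ahr-/- replicate 1. Its receptor gene Klrb1b had 36.9, 48.3 and 42.7 against 51.5, 37.0 and 35.6 normalized counts, with a log2 fold change of -0.09 ± 0.22 and an adjusted p of 0.83 in edgeR.

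Levels can be compared between genes only per length, and per kb of coding sequence the order in Ahr+/+ was Clec2d, Clec7a, Clec12a, Cd209a, Clec10a, Clec9a, Clec4a2, Cd209d and Cd209b. Clec2d stood at 5019 ± 238 normalized counts per kb (SD, n = 3) and Clec7a at 94.8 ± 37.8, against 23.4 ± 5.73 for Clec12a. Cd209a (9.10 ± 1.89), Clec10a (8.15 ± 5.29), Clec9a (7.41 ± 1.08) and Clec4a2 (6.60 ± 2.67) did not differ beyond their spread. In Ahr-/-, Cd209a rose to 51.2 ± 12.2 per kb, next to Clec12a at 61.9 ± 15.4, and Cd209d to 24.6 ± 10.3, above Clec4a2 at 14.3 ± 8.53. Clec2d at 5781 ± 720 and Clec7a at 147 ± 59.4 kept their places. Per kb of all annotated exons Cd209a came before Clec12a in both genotypes (4.11 and 3.39 in Ahr+/+, 23.1 and 8.97 in Ahr-/-), so the order of those genes depends on the length used.

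Libraries of 1 genotype differed from each other in some lectins and not in others. Ahr+/+ replicate 1 had 0.42 to 0.46 times the mean of its other replicates in Clec10a, Clec4a2 and Clec7a, and Ahr-/- replicate 3 had 0.67, 0.24 and 0.49 times the mean of its own. In Ahr+/+ replicate 1 the Clec4a2 value rests on 3 raw counts, and Clec10a, with 4, 13 and 5 raw counts in Ahr+/+, differed there mainly from replicate 2. Genes of monocytes and other myeloid cells, chosen here after their values were seen, were low in the same libraries: Lyz2, lysozyme M, was at 0.35 and 0.29 times, F13a1 at 0.17 and 0.29 times and Csf1r, the M-CSF receptor, at 0.48 and 0.50 times. Clec12a was lower in both libraries by less (0.64 and 0.72). Clec9a stood at 0.99 and 0.72, but its Ahr-/- replicate 3 (16.4 normalized counts) was close to replicate 1 (17.2) and differed mainly from replicate 2 (28.4). Cd209a (0.85 and 1.03) and Clec2d (1.06 and 0.80) stood nearer to 1, as did Siglech (1.01 and 1.02), a gene of plasmacytoid dendritic cells, while Cd209d stood at 1.82 and 0.98 on 2 raw counts in Ahr+/+ replicate 1. Without both libraries, a choice also made after the data were seen, the log2 fold changes were 2.47 for Cd209a, 4.08 for Cd209d, 1.70 for Clec10a, 2.05 for Clec9a, 1.42 for Clec12a, 1.26 for Clec4a2, 0.66 for Clec7a and 0.33 for Clec2d.

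**Figure D3:**
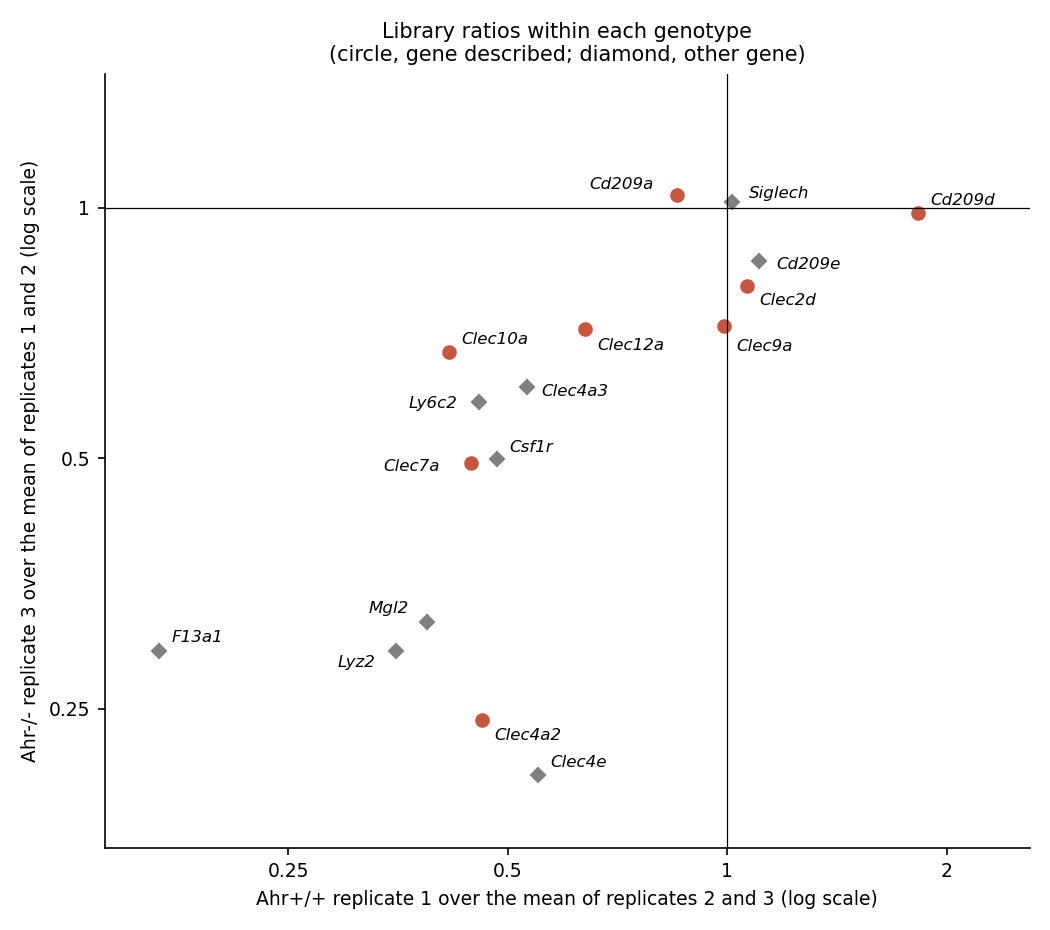
Normalized counts of Ahr+/+ replicate 1 over the mean of Ahr+/+ replicates 2 and 3 (horizontal, log scale) against Ahr-/- replicate 3 over the mean of Ahr-/- replicates 1 and 2 (vertical, log scale) for 8 of the lectin genes (red circles) and 9 other genes (grey diamonds). Clec10a, Clec4a2 and Clec7a lie to the lower left with Lyz2, Csf1r and Mgl2, and Cd209a lies close to 1 on both axes with Siglech.

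Other C-type lectin genes, a list also drawn up with earlier results of these data known, were tested in the same fit. Of 81 listed, 78 had a row, 20 had no count in any library and 49 were tested. In edgeR 14 passed an adjusted p of 0.05, 10 higher and 4 lower in Ahr-/-, which is 28.6% beside 17.9% of all tested genes, and the median log2 fold change was 0.27 beside 0.00214 over all tested genes. Of the 10 higher calls, Cd209e, Mrc2 and Klra17 had 8, 5 and 6 counts over the Ahr+/+ libraries and reached the minimum through Ahr-/- counts. A filter of 10 counts in 3 libraries left 28 tested, with 6 higher and 4 lower, beside 20.1% of all tested genes called. The count was 9 of 47 without Ahr+/+ replicate 1, 8 of 47 without Ahr-/- replicate 2 and 8 of 49 at an adjusted p of 0.01. The shares of all tested genes called there were 14.1%, 12.4% and 10.8%.

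Among lectins of myeloid cells, Clec4a3 and Mrc1 passed the test and were higher in Ahr-/-. Clec4a3, next to Clec4a2, had 9.71, 14.1 and 22.5 against 29.2, 54.7 and 25.5 normalized counts, a log2 fold change of 1.32 ± 0.37 (edgeR, adjusted p = 0.028). The other 5 tested genes of that Dectin-2 cluster, among them Clec4d, Clec4e and Clec4n, did not pass, with log2 fold changes of 0.08 to 0.94, and the cluster had 3 calls without Ahr-/- replicate 3. Mrc1, the macrophage mannose receptor, had 4.86, 7.04 and 5.62 against 25.7, 28.4 and 7.29 normalized counts, a log2 fold change of 1.77 ± 0.52 (edgeR, adjusted p = 0.032). Both calls depended on single libraries. That of Clec4a3 was lost without Ahr+/+ replicate 1, Ahr+/+ replicate 2 or Ahr-/- replicate 2 (adjusted p up to 0.21). That of Mrc1 was lost without any library except Ahr-/- replicate 3 (adjusted p up to 0.21).

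The other called lectins, among them Cd72 and Fcer2a of B cells, moved in both directions. Cd72, an inhibitory co-receptor of B cells, rose from 7932 to 9030 in Ahr+/+ to between 11710 and 14020 normalized counts in Ahr-/- libraries, a log2 fold change of 0.60 ± 0.07 (edgeR, adjusted p = 4.1e-05). Fcer2a (CD23, the low-affinity IgE receptor that IL-4 induces) rose less, by 0.31 ± 0.07 on the log2 scale (edgeR, adjusted p = 0.0076). Cd69, an early activation marker of lymphocytes, fell from 8586, 6770 and 7851 to 3513, 3460 and 3502 normalized counts, a log2 fold change of -1.15 ± 0.07 (edgeR, adjusted p = 1.6e-07). Cd93 fell from between 696 and 869 to between 288 and 403 normalized counts, a log2 fold change of -1.24 ± 0.12 (edgeR, adjusted p = 1.3e-05). Thbd, thrombomodulin, fell with a log2 fold change of -2.67 ± 0.37 (edgeR, adjusted p = 0.00025), and Klrg2 with -3.62 ± 0.27 (edgeR, adjusted p = 1.2e-06). These 6 genes did not overlap between genotypes and kept their calls with any 1 library left out, although Fcer2a lost its call in the robust quasi-likelihood fit of edgeR (adjusted p = 0.062). Clec2i, Klrb1c and Ly75 rose by 0.20, 0.92 and 0.27 on the log2 scale (edgeR, adjusted p = 0.026, 0.028 and 0.023). The Clec2i call was lost without Ahr+/+ replicate 2 or 3 or Ahr-/- replicate 3, that of Klrb1c without Ahr+/+ replicate 1 or 3 or Ahr-/- replicate 1 or 2, and that of Ly75 without Ahr+/+ replicate 1 or 2 or Ahr-/- replicate 2, with adjusted p of up to 0.13. The remaining calls, Mrc2 and Klra17, had under 10 normalized counts in every genotype's mean.

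**Figure D4:**
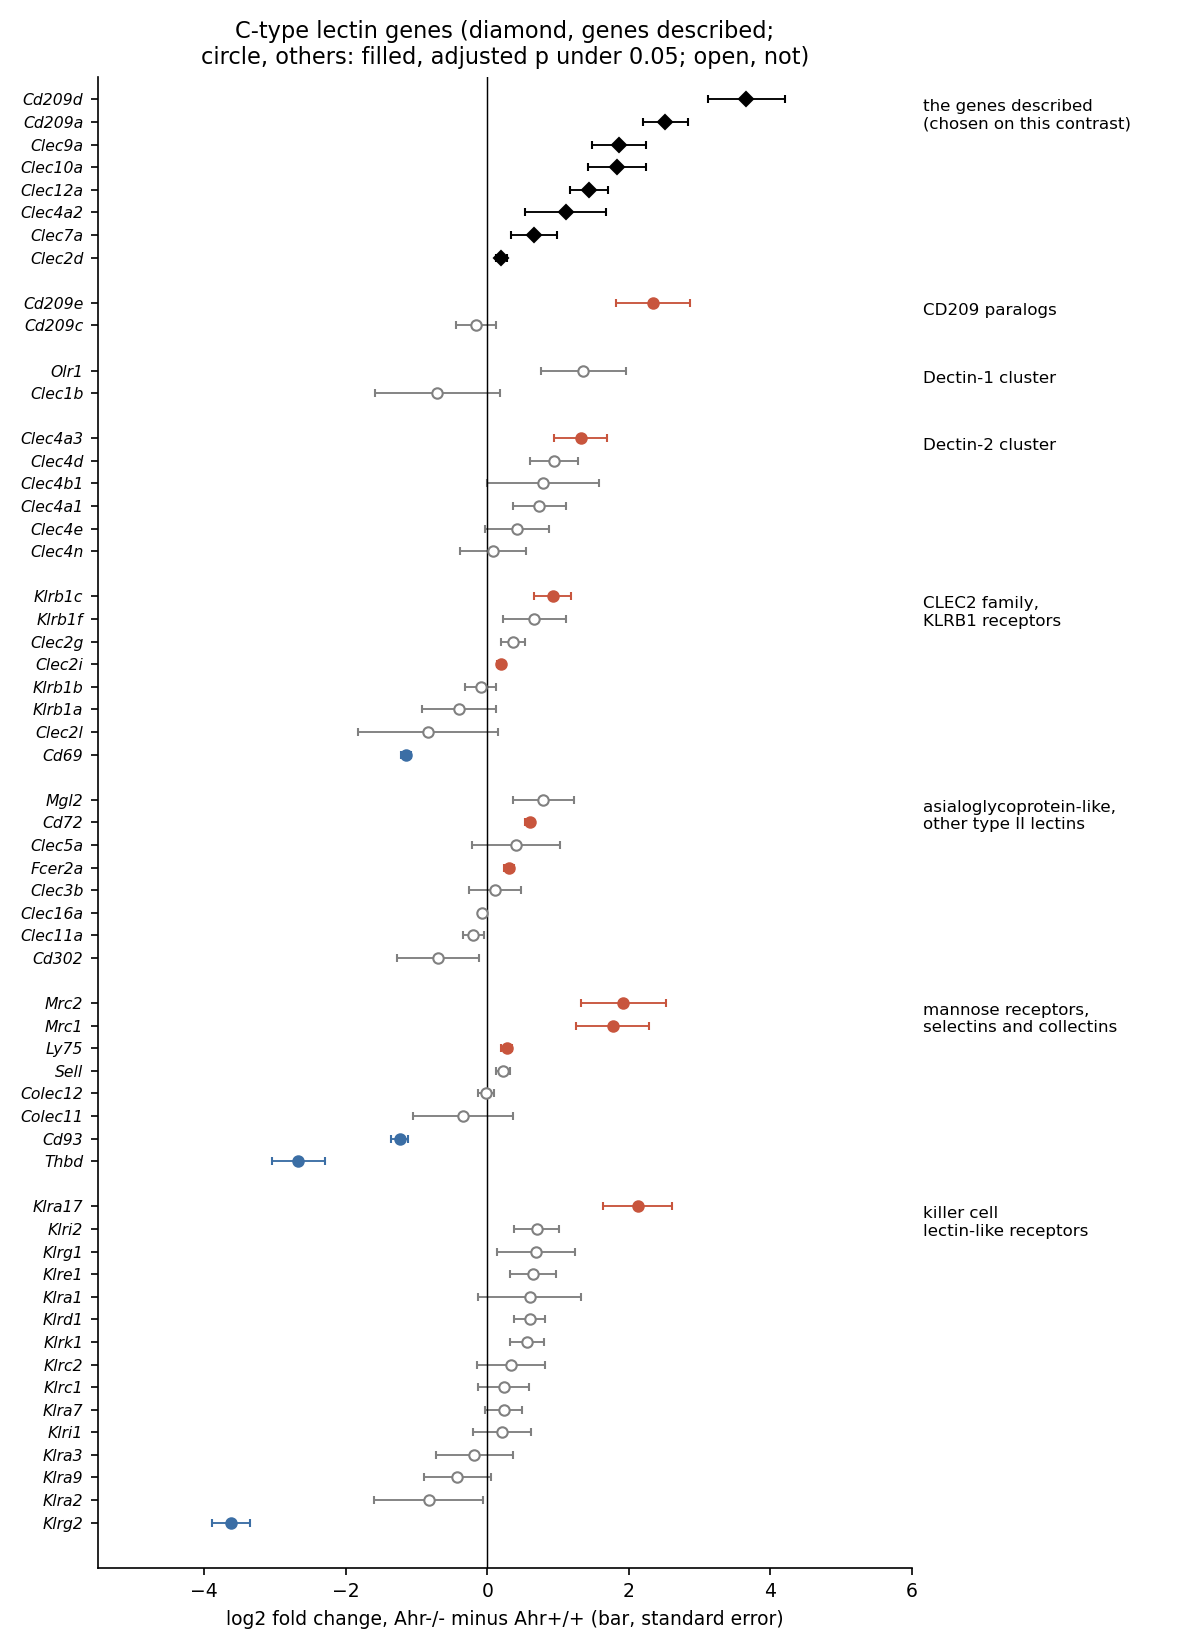
Log2 fold change of Ahr-/- over Ahr+/+ (horizontal axis, bars show the SE) for the 8 tested lectin genes (black diamonds, chosen on this comparison) and 49 other tested C-type lectin genes (circles, filled where the adjusted p was under 0.05, red higher and blue lower), grouped by family. Cd209d at 3.66 and Klrg2 at -3.62 mark the ends of the range.

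Of 18 partners that carry lectin receptor signals, many of them also used by the B cell receptor, 12 passed the test, 7 higher and 5 lower in Ahr-/-, beside 17.9% of all tested genes in either direction. Syk, the kinase downstream of Dectin-1 and DNGR-1 and of the B cell receptor, rose by 0.47 ± 0.05 on the log2 scale (edgeR, adjusted p = 4.6e-05), and Prkcd, protein kinase C delta, by 0.55 ± 0.04 (edgeR, adjusted p = 1.2e-06). Ptpn6 (SHP-1), the phosphatase recruited by inhibitory motifs such as that of Clec12a, fell from between 37050 and 38990 to between 16670 and 19020 normalized counts, a log2 fold change of -1.10 ± 0.05 (edgeR, adjusted p = 5.4e-09). Plcg2 and Bcl10 fell by 0.38 ± 0.04 and 0.41 ± 0.04 on the log2 scale (edgeR, adjusted p = 4.3e-05 and 2.3e-05). Of the partners that myeloid cells use, the adaptor Tyrobp (DAP12) rose from 98.1, 135.8 and 119.0 to 218.0, 242.4 and 190.6 normalized counts, a log2 fold change of 0.89 ± 0.14 (edgeR, adjusted p = 0.00077). Card9 did not pass, with 12.6, 20.1 and 15.7 against 15.4, 30.6 and 10.0 normalized counts (edgeR, adjusted p = 0.69).

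Markers of the cell types a spleen preparation could hold were examined in the same fit, in which 17.9% of all tested genes passed in either direction and 9.79% as higher in Ahr-/-. Differences between the marker lists, and the part of other cells in the lectin differences, were not tested. Of 17 conventional dendritic cell markers, 10 were higher and 1 lower in Ahr-/- (edgeR), and their summed level was 16970 to 18520 normalized counts in Ahr+/+ and 22150 to 23490 in Ahr-/- libraries. Wdfy4 alone made 63.0% of that sum, and the other markers summed to 5670 to 6371 and 7789 to 9591. Among them Itgae (CD103) rose from 15.5, 22.1 and 21.3 to 72.1, 74.6 and 82.1 normalized counts, and the chemokine Ccl17 from 9.71, 6.04 and 8.99 to 58.4, 55.5 and 41.9 (edgeR, adjusted p = 2.5e-05 and 3.2e-05). Xcr1 and Batf3, which with Clec9a are among the markers of the cross-presenting subset, did not pass (edgeR, adjusted p = 0.62 and 0.28). Xcr1 had 17.5, 17.1 and 20.2 against 20.6, 12.8 and 14.6 normalized counts. Tlr3, also found in that subset, had 27.2, 26.2 and 38.2 against 25.7, 14.2 and 6.38 normalized counts, with every Ahr-/- library below the Ahr+/+ libraries, and did not pass (edgeR, log2 fold change -1.11 ± 0.38, adjusted p = 0.065). Other genes of the list, among them Itgae and Wdfy4, which were called higher, were not assigned to a subset here. Zbtb46, a transcription factor of conventional dendritic cells, fell by 0.40 ± 0.07 on the log2 scale (edgeR, adjusted p = 0.0014).

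Of 13 plasmacytoid dendritic cell markers, 8 were higher and 1 lower, while their summed level was 12170 to 13660 in Ahr+/+ and 10790 to 12380 normalized counts in Ahr-/- libraries. Tcf4, which B cells also express, made 49.5% of that sum, and the other markers summed to 4965 to 6126 and 5967 to 7962. Siglech rose from 57.3, 52.3 and 60.6 to 300.3, 236.0 and 272.6 normalized counts, a log2 fold change of 2.23 ± 0.14 (edgeR, adjusted p = 2.1e-07). Klk1 rose by 2.19 ± 0.26, Runx2 by 1.47 ± 0.15 and Lifr by 1.42 ± 0.14 on the log2 scale (edgeR, adjusted p = 7.9e-05, 2.3e-05 and 1.1e-05). Tcf4, a transcription factor of this lineage and of B cells, fell by 0.68 ± 0.05 (edgeR, adjusted p = 5.3e-07).

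Monocyte markers passed in 2 of 10 (Fn1 and Ccr2, both higher), with sums of 2537 to 3167 normalized counts in Ahr+/+ and 2846 to 4366 in Ahr-/-, lowest in Ahr+/+ replicate 1 and Ahr-/- replicate 3. Ms4a4c made 72.4% of the monocyte sum, and the other markers summed to 374.9 to 838.1 and 671.1 to 1591. The Ccr2 call (edgeR, adjusted p = 0.034) was lost without Ahr+/+ replicate 1 or 2 or Ahr-/- replicate 1 or 2 (adjusted p up to 0.19), and the robust fit of edgeR lost both (adjusted p = 0.055 for Ccr2 and 0.094 for Fn1). Neutrophil markers passed in 0 of 10 in edgeR (2 at an unadjusted p under 0.05) and in 0 with DESeq2, with sums of 191.4 to 445.7 and 194.2 to 663.2 normalized counts and the same 2 libraries lowest. Of 14 tested macrophage markers Marco and Emr1 were called. Marco had 1, 2 and 0 raw counts in Ahr+/+ and 10, 21 and 7 in Ahr-/-, so it entered the fit through its Ahr-/- counts alone, and under a filter of 10 counts in 3 libraries no macrophage marker was called higher in edgeR. Emr1 (F4/80) fell from between 633 and 662 normalized counts in Ahr+/+ to between 35.6 and 63.5 in Ahr-/- (edgeR, adjusted p = 2.9e-09), while the defining markers Siglec1 and Cd163 had at most 3 counts in every library. Sums for macrophage markers were 1442 to 1811 and 843.4 to 1322 normalized counts, and without Emr1 they overlapped (788.7 to 1149 and 807.8 to 1258). Without Ahr-/- replicate 3 the calls were 7 for monocyte, 4 for neutrophil and 6 for macrophage markers, against 11 for conventional dendritic cell markers with that library in or out. Natural killer cell markers passed in 3 of 8, all higher (365.2 to 471.9 against 479.6 to 741.4), and in 1 without Ahr+/+ replicate 1 or 3 or Ahr-/- replicate 1 or 2. T cell markers passed in 2 of 10, both lower (Cd28 and Cd3e). Lck made 95.6% of the T cell sum, and without it the sums were 251.6 to 414.5 and 240.3 to 260.2 normalized counts. B cell markers passed in 6 of 10, 5 of them higher (103400 to 109000 against 119800 to 125900). Of these, the calls of Cr2 (higher) and Ebf1 (lower) were lost in 5 and 4 of the 6 fits with 1 library left out. Over all marker lists 35 of 92 tested genes were called, and 49 of 92 without Ahr-/- replicate 3, beside 17.9% and 19.3% of all tested genes.

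**Figure D5:**
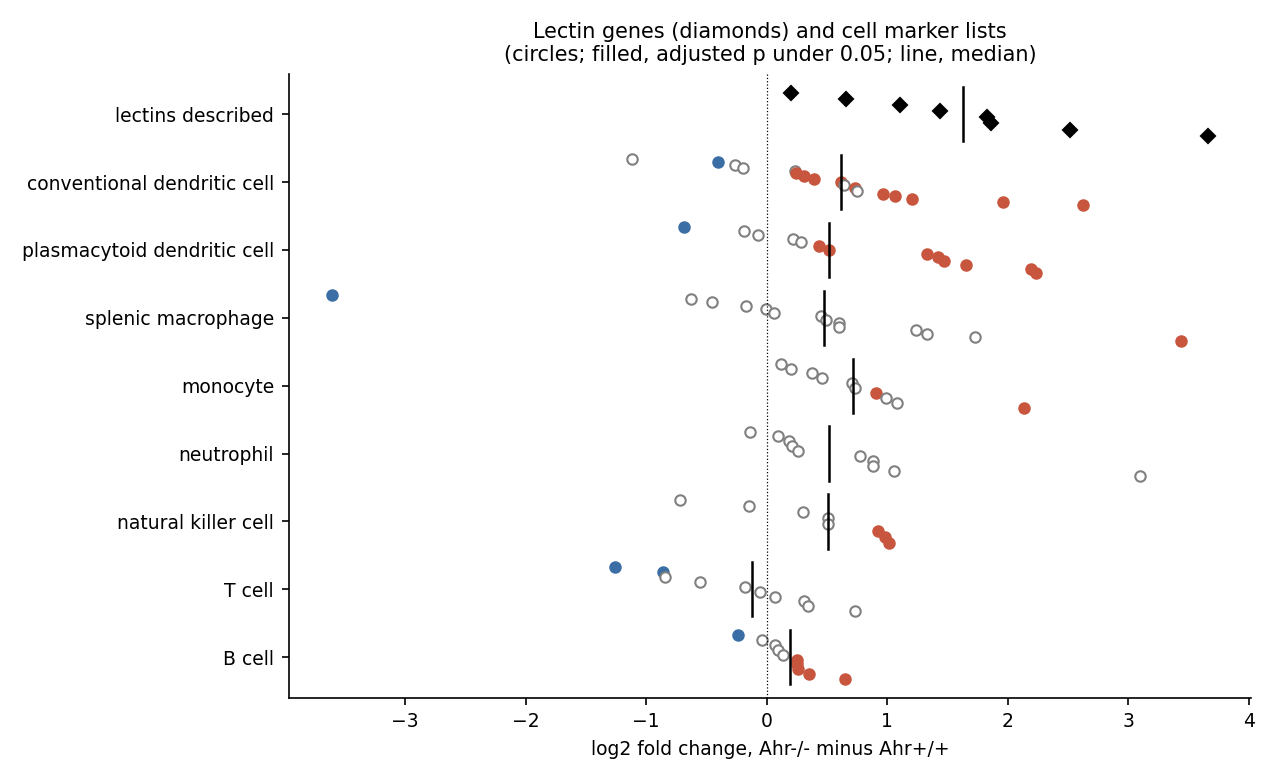
Log2 fold change of Ahr-/- over Ahr+/+ (horizontal axis) for the 8 tested lectin genes (black diamonds, chosen on this comparison) and the tested genes of 8 cell marker lists (circles, filled where the adjusted p was under 0.05, red higher and blue lower); the vertical line is each list's median. Dendritic cell lists have 18 genes called higher, and neutrophil markers have none called.

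Many genes had a profile over the 6 libraries close to that of a lectin. By Pearson correlation of log2(normalized count + 1), the genes most like Cd209a were Unc119, Poc1b and Irf8 (r = 0.999, 0.999 and 0.998), and 389 of 10438 genes reached 0.95. Clec10a was nearest to Mybl2, Zcchc24 and Srl (r = 0.997 for each), Clec9a to Mcm6, Gem and Snrpg (r = 0.994, 0.994 and 0.992), and Clec2d to Fam84b, Idh3a and Nup37 (r = 0.996, 0.989 and 0.986). The libraries share the genotype contrast, and with 6 points and so many genes such values describe likeness only.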

How the data were processed

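RNA was sequenced from 6 cultures of splenic B cells, 3 per genotype, after poly(A)-selected, stranded library preparation. According to the submitters' processing notes, the authors used TopHat2, HTSeq, DESeq and the mm10 build; how strand and multiply mapped reads were handled is not given in the sources used here. The table used holds the raw counts per gene that the authors deposited, with 23420 rows. A second table, with normalized counts and the authors' own comparison, was not used.

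Raw counts were tested with edgeR 4.0.16 in R 4.3.3 (TMM scaling, quasi-likelihood fit, genes with at least 10 counts over all 6 libraries, Benjamini-Hochberg over all 13682 tested genes, threshold 0.05). Normalized counts are counts divided by the TMM-scaled library size and multiplied by its mean. The fit was tested on simulated data. The floor was fixed at 3 counts per library, which is 2.13 to 5.15 normalized counts at totals of 22095096 to 53648787. Intervals (95%, exact) cover counting error only. The fit treats the 3 mice of a genotype as replicates.

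The lectin genes, lists and motifs were chosen with earlier results of these data known. Beyond the 9 genes and Ahr, the text draws on called genes of each list whose genotype mean reached 10 normalized counts (up to 8 by absolute fold change), and the 3 genes most like Cd209a, Clec10a, Clec9a and Clec2d among those reaching 50. Cyp1a1 and other genes named with values were singled out after their values were seen. Positions and lengths are from GENCODE M21 (GRCm38) and promoters from RefSeq (GRCm38.p6). Scaling, filters, DESeq2 1.42.0, a robust fit, a replicate block, prior counts and left-out libraries were tried as alternatives.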

Additional observations from a re-analysis of the deposited data

How the results depend on the processing

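The log2 fold changes of the 8 tested lectin genes stayed above 0 under every alternative run, and no called list gene among the 8 largest changes of its list reversed. Calls among the 8 genes, which are no test of them, numbered 4 to 8 when single libraries were left out. The 4 came without Ahr-/- replicate 2, which lost Clec10a and where 12.4% of all tested genes were called, and the 8 without Ahr-/- replicate 3, where 19.3% were. For the other C-type lectins the count was 14, and ranged from 8 (without Ahr-/- replicate 2) to 18 (without Ahr-/- replicate 3). It was 9 without Ahr+/+ replicate 1, where 14.1% of all tested genes were called. At an adjusted p of 0.01 it was 8, where all genes gave 1473 in place of 2453. No filter and the DESeq2 Wald test each added Clec2d, for 6 calls (16.3% and 16.1% of all tested genes), and a filter of 10 counts in 3 libraries removed Cd209d and Clec4a2 and left 4 (20.1%). Nothing in the labels says that the replicate numbers pair the mice. Correlations of deviations were -0.0299, 0.12 and -0.0448 for same-numbered libraries and -0.179 to 0.183 for differently numbered ones, which cannot decide it. With a replicate block, 5 of the 8 genes and 13 other lectins were called (16.8% of all tested genes). Depth limits Cd209b, Cd209d and Clec4a2, which rest on 1, 64 and 50 counts in all.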
